A study of Mus musculus with 8 samples.

Results

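Notch receptors and their nuclear effectors were described as a set of 10 genes: the receptors Notch1, Notch2 and Notch3, the feedback inhibitor Nrarp, and the transcriptional regulators Hes1, Hes5, Hes6, Hey1, Hey2 and Heyl. They were taken by symbol from a deposited table of 41709 gene symbols, and all 10 were found. RNA of 8 whole mouse embryos of embryonic day 9.5 had been sequenced, in a study of Sonic Hedgehog signalling and allostery of its receptor. Of these, 4 carried wild-type Smo (Smo+/+, here WT) and 4 were homozygous for the substitution K399A in Smo (mutant), both from matings of heterozygous females with heterozygous males. Smo encodes Smoothened, the membrane protein that passes the Hedgehog signal on into the cell. No Cre, transgene or treatment is named. The embryos came from multiple litters, each embryo was its own sample, and which embryo came from which litter is not given. The libraries were made from whole embryos, so a transcript level sums over all tissues, and fewer cells of a type cannot be told apart from less RNA per cell.

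Notch receptors are cleaved when a Delta or Jagged ligand on a neighbouring cell binds them. The released intracellular part enters the nucleus, joins the DNA-binding protein RBPJ and switches on genes of the Hes and Hey families, whose products are repressors. In the neural tube Hes1 and Hes5 hold progenitors back from becoming neurons, and in the paraxial mesoderm the pathway times the formation of somites. In vessels and heart the Hey genes act in arterial fate and in the patterning of the heart chambers. Hes6 stands apart in this family: it accompanies neuronal differentiation and counteracts Hes1.

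The promoter sequences of Hes5, Hey2 and Nrarp are shown because Hes5 and Hey2 each carry a pair of RBPJ-type sites near the start. Nrarp, which shared its lowest and highest embryo with Hes5, has no such site in the same window. The stretches are from RefSeq on build GRCm38.p6 and run 5′ to 3′ on the gene's strand, from 250 bases before the RefSeq start to the first 5 bases after it. Capitals mark TGGGAA, the core that RBPJ recognises, or its reverse complement TTCCCA. The Hes5 stretch is chr4:154960673-154960927 on the plus strand, that of Hey2 is chr10:30842779-30843033 on the minus strand, and that of Nrarp is chr2:25180508-25180762 on the plus strand.
Hes5: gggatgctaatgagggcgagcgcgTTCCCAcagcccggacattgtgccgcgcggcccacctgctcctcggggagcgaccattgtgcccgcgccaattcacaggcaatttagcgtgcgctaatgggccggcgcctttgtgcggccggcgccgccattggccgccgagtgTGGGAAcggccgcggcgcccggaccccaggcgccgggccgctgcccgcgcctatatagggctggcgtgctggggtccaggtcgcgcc
Hey2: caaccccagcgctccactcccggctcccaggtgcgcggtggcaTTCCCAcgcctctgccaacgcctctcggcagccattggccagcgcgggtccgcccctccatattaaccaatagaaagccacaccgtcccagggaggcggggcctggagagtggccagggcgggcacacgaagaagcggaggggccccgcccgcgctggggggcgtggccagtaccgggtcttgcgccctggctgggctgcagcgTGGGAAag
Nrarp: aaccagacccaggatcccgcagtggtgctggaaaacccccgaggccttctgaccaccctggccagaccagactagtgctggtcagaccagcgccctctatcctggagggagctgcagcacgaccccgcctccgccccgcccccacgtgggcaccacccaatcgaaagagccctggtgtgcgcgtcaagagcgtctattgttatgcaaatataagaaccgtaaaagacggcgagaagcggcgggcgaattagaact

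Of the 10 members, 7 had a window in the RefSeq table (8 windows, with 2 for Hes6). Hes1, Hey1 and Heyl had none and were not searched. Windows covered 250 bases before and 50 after the start, and were searched on both strands. TGGGAA was found in the windows of 2 members, Hes5 and Hey2, each with 1 match on each strand. Of all 32851 mouse windows of this length 25.6% held TGGGAA at least once and 1.81% held it on both strands. In Hes5 the matches began 226 bases before the start, on the strand opposite to the gene, and 82 bases before it, on the gene's strand. In Hey2 they began 207 bases before the start, on the strand opposite to the gene, and 3 bases before it, on the gene's strand. All 4 matches extended to the longer form GTGGGAA, which overlaps TGGGAA and which 0.10% of all windows held on both strands. The N-box CACNAG, which Hes proteins can bind, was found in Notch1, Notch2, Notch3, Nrarp and 1 window of Hes6, and in 42.5% of all windows. These are matches of letters within the windows and no measurement of binding.

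Between 57.7 and 59.1 M reads per library (M, mega) were recovered from the steps between the deposited values. This sum covers only the symbols whose reads came out whole in all embryos, and is no full library depth. The members rested on 381 reads (Heyl in mutant 4) to 9442 reads (Notch3 in WT 2), so that counting error was at most 5.12% for any of these values. All 10 members had at least 1 TPM (a transcript level scaled to gene length and to the library's total) in all 8 embryos. Of 97 marker genes written down for 11 cell types, none was at 0 in all embryos. Neural progenitors (Sox2, 172 ± 21.4 TPM in WT and 143 ± 38.2 TPM in mutants, SD, n = 4 each) and heart muscle (Actc1, 658 ± 117 and 1159 ± 370 TPM) were both well detected. Mutants 3 and 4 stood apart in mt-Nd6, a mitochondrial transcript, at 4.06 and 10.8 TPM against 27.9 to 36.2 TPM in the other 6 libraries. Where the estimate of a member or a named pathway gene moved by over 1.5 times without both libraries, the value is given beside it. For the marker genes no estimate without both libraries is given. Mitochondrial genes took 4.70 to 5.45% of TPM in WT and 5.90 to 6.66% in mutants, so that this share did not overlap between the genotypes, and its part in the results was not tested beyond a fit with these genes left out.

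The levels of the members covered a range from below 10 to above 70 TPM. Averaged over the 8 embryos, Nrarp was at 78.0 TPM, Hes5 at 71.5, Hes6 at 59.1, Hes1 at 58.0, Notch3 at 57.0, Hey1 at 33.3, Notch2 at 28.7, Notch1 at 24.4, Hey2 at 9.20 and Heyl at 6.15 TPM. Neighbours in this order overlapped in range except at the gaps between Notch3 and Hey1 and between Notch1 and Hey2, where the higher gene lay above the next in 8 of 8 embryos. Among the receptors Notch3 was thus the most abundant transcript in every embryo. The spread over the 8 embryos was widest for Hes5, whose highest value was 3.18 times its lowest, and narrowest for Hes1, at 1.21 times.

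**Figure D1:**
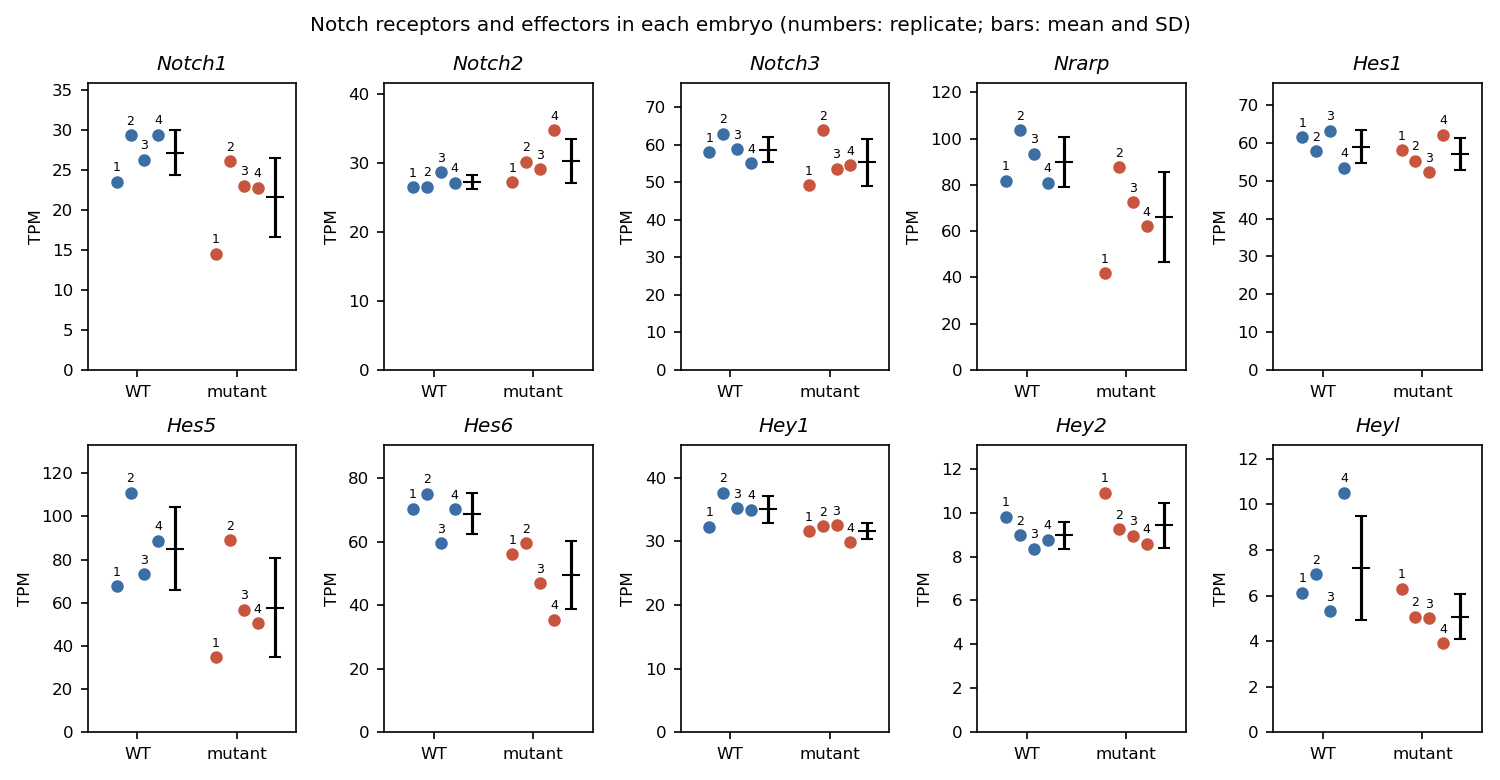
TPM (linear axis from 0) of the 10 members in each embryo, WT in blue and mutant in red, with replicate numbers beside the points and the mean with SD beside each group. Hes6 is the only member whose groups do not overlap, and mutant 1 is the lowest embryo for Notch1, Notch3, Hes5 and Nrarp.

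The 3 receptors differed in where the mutants lay. Notch1 (chromosome 2, 26457903 to 26516663, GRCm38), the main receptor of neural progenitors, endothelium and presomitic mesoderm, was at 23.5, 29.3, 26.3 and 29.4 TPM in WT 1 to 4. In mutants 1 to 4 it was at 14.5, 26.04, 23.0 and 22.8 TPM. Mutants 1, 3 and 4 lay below every WT embryo and mutant 2 lay within the WT range. The means were 27.1 ± 2.80 and 21.6 ± 4.94 TPM (SD, n = 4), a log2 fold change of -0.34 ± 0.16 (SE; adjusted p by limma = 0.384; exact permutation p = 0.0571). Without mutant 1 it was -0.17.

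Notch2 (chromosome 3, 98013527 to 98150361), a widely expressed receptor, was at 26.4, 26.5, 28.6 and 27.1 TPM in WT embryos and at 27.1, 30.2, 29.0 and 34.7 TPM in mutants. Here 3 mutants lay above every WT embryo, with mutant 4 the highest. Its log2 fold change was 0.15 ± 0.08 (SE; adjusted p by limma = 0.416; exact permutation p = 0.0571), 0.08 without mutant 4 and 0.07 without mutants 3 and 4. Notch3 (chromosome 17, 32120820 to 32166852), best known from the smooth muscle of vessels, was at 58.0, 62.9, 58.8 and 55.1 TPM in WT and at 49.2, 63.8, 53.5 and 54.5 TPM in mutants. Both the lowest and the highest of its 8 values were mutants. Its log2 fold change was -0.09 ± 0.08 (SE; adjusted p by limma = 0.595), with a 95% confidence interval from -0.27 to 0.09.

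Nrarp (chromosome 2, 25180758 to 25183339) is induced by Notch and in turn limits the pathway by binding its nuclear complex. It was at 81.9, 103.6, 93.5 and 81.0 TPM in WT embryos and at 41.8, 87.7, 72.6 and 62.2 TPM in mutants. As for Notch1, mutants 1, 3 and 4 lay below every WT embryo and mutant 2 lay among them. The means were 90.0 ± 10.7 and 66.1 ± 19.3 TPM (SD, n = 4), and the log2 fold change was -0.48 ± 0.19 (SE; adjusted p by limma = 0.341; exact permutation p = 0.0857). Without mutant 1 it was -0.28.

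Among the Hes genes, Hes5 and Hes6 had lower means in mutants and Hes1 had nearly the same mean in both groups. Hes1 (chromosome 16, 30064384 to 30067796), used by many tissues, was at 61.5, 57.8, 63.2 and 53.5 TPM in WT and at 58.1, 55.3, 52.3 and 62.2 TPM in mutants. The groups overlapped almost fully, and the 95% confidence interval of the log2 fold change of -0.05 ran from -0.21 to 0.11 (limma adjusted p = 0.753). A difference within that interval could not be resolved with these embryos.

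Hes5 (chromosome 4, 154960923 to 154962371), the Hes gene of neural progenitors, was at 67.8, 110.9, 73.1 and 88.8 TPM in WT embryos and at 34.9, 89.0, 56.8 and 50.7 TPM in mutants. Again mutants 1, 3 and 4 lay below every WT embryo, while mutant 2 was the second highest of all 8. The means were 85.1 ± 19.3 and 57.8 ± 22.8 TPM (SD, n = 4), so that the mutant mean was 0.679 of the WT mean. The log2 fold change of -0.60 ± 0.25 (SE) did not pass (limma adjusted p = 0.352; exact permutation p = 0.143), was -0.39 without mutant 1 and was -0.83 without mutant 2.

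Hes6 (chromosome 1, 91411483 to 91414038), the family member of differentiating neurons, was at 70.3, 75.1, 59.6 and 70.3 TPM in WT embryos and at 56.1, 59.5, 47.0 and 35.4 TPM in mutants. All 4 mutants lay below all 4 WT embryos, but the gap between WT 3 and mutant 2 was small. The means were 68.8 ± 6.54 and 49.5 ± 10.8 TPM (SD, n = 4). The log2 fold change of -0.49 ± 0.15 (SE) had the smallest p of the 10 members and did not pass after adjustment over all genes (limma p = 0.00853, adjusted p = 0.291; exact permutation p = 0.0286, the smallest that 4 against 4 allow). Hes6 was lowest in mutants 3 and 4, the libraries low in mt-Nd6, and its log2 fold change was -0.24 without both. The part of these libraries in the Hes6 difference was not tested.

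The 3 Hey genes were lower in level and less uniform in direction. Hey1 (chromosome 3, 8663359 to 8667256), of arteries, somites and brain, was at 32.3, 37.6, 35.2 and 35.0 TPM in WT and at 31.6, 32.4, 32.6 and 29.8 TPM in mutants. WT 1 lay within the range of the mutants and the other 3 WT embryos lay above it. The difference was small but so was the spread: the log2 fold change was -0.14 ± 0.06 (SE; adjusted p by limma = 0.365; exact permutation p = 0.0857).

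Hey2 (chromosome 10, 30832359 to 30842801), which acts in the ventricles of the heart and in arteries, was at 9.81, 8.96, 8.36 and 8.77 TPM in WT and at 10.9, 9.24, 8.95 and 8.59 TPM in mutants. Its groups overlapped, with mutant 1 the highest embryo. The log2 fold change was 0.06 (limma adjusted p = 0.782; 95% confidence interval -0.15 to 0.27), -0.006 without mutant 1 and 0.15 without mutants 3 and 4. Heyl (chromosome 4, 123233556 to 123249875), of smooth muscle and somites, was at 6.13, 6.94, 5.32 and 10.5 TPM in WT and at 6.31, 5.07, 5.01 and 3.91 TPM in mutants. Mutants 2, 3 and 4 lay below every WT embryo, and WT 4 was far above the rest. The log2 fold change of -0.41 ± 0.19 (SE; adjusted p by limma = 0.382; exact permutation p = 0.0857) was -0.24 without WT 4 and -0.27 without mutants 3 and 4.

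Counted over the set, 0 of 10 members passed an adjusted p under 0.05 in limma, and 0 of 13596 genes tested did so (0%). At an unadjusted p under 0.05, 4 members had a lower level in mutants (Hes5, Hes6, Nrarp and Hey1) and 0 a higher one. The same was true of 8.0% of all genes tested for lower and 5.55% for higher levels. The groups did not overlap for 1 member, with lower values in mutants, against 3.82% of all genes. A log2 fold change below 0 was found for 8 of 10 members and for 62.3% of all genes, or 49.5% of all genes with median-ratio scaling, under which it was still 8 members. The median log2 fold change was -0.24 over the members and -0.04 over all genes tested. Under that scaling the genes at an unadjusted p under 0.05 were 909 lower and 1218 higher, against 1088 and 754. With mitochondrial genes left out they were 803 lower and 876 higher, and again 8 members had a negative estimate. The count of 4 members was not stable. It was 6 with array weights, 1 with median-ratio scaling, 1 without mutants 3 and 4, 1 without mutant 4 and 1 without WT 2.

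**Figure D2:**
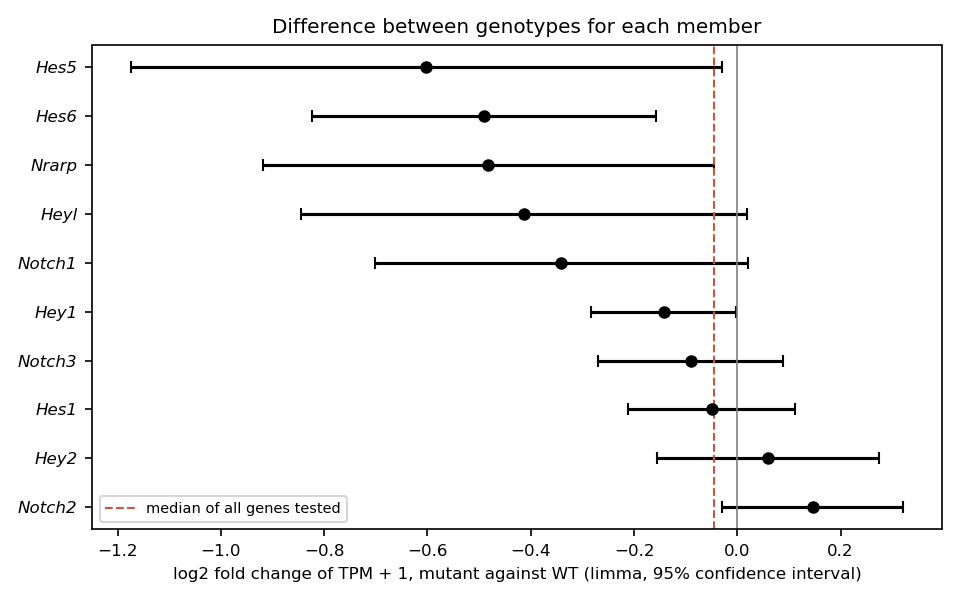
Log2 fold change of TPM + 1 in mutants against WT from limma, with 95% confidence intervals, for the 10 members in order of their estimate; the dashed line is the median of all 13596 genes tested (-0.04). The estimates run from -0.60 for Hes5 to 0.15 for Notch2, and the intervals of Hes5, Hes6, Nrarp and Hey1 end below 0.

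The members did not vary together as 1 set. Mutant 1 was the lowest of the 8 embryos for Notch1, Notch3, Hes5 and Nrarp, at 0.535, 0.838, 0.409 and 0.464 of the WT mean. For Hey2 the same embryo was the highest, at 1.21 of the WT mean, and for Hes1 it was at 0.984. Mutant 4 was the lowest embryo for Hes6, Hey1 and Heyl, at 0.514, 0.853 and 0.542 of the WT mean, and the highest for Notch2. WT 2 was the highest embryo for Nrarp, Hes5, Hes6 and Hey1. Mutant 2 lay within the WT range for Notch1, Hes5 and Nrarp, and for Notch3 it was the highest of all 8.

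**Figure D3:**
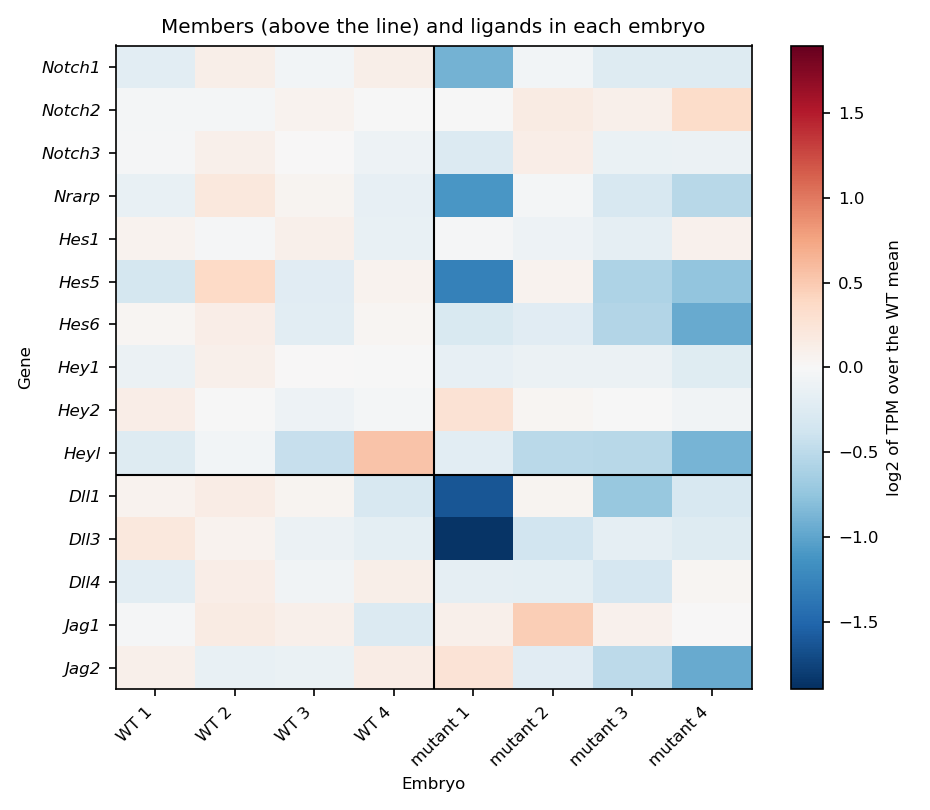
Log2 of TPM over the WT mean for the 10 members and 5 Notch ligands (rows) in each embryo (columns), blue below and red above the WT mean. The darkest cells are those of mutant 1 for Dll3, Dll1 and Hes5, whereas Hes1 and Hey2 stay pale in all embryos.

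Markers of the tissues in which Notch acts differed between the same embryos. The summed level of 11 neural progenitor genes was 645 to 863 TPM in WT and 412 to 753 TPM in mutants, with the lowest value in mutant 1 and the highest in WT 2. All 11 had a lower mean in mutants, 2 of them at an unadjusted p under 0.05. Of all genes tested, 62.3% had a negative estimate and 8.0% were lower in mutants at that level. The 11 neuronal genes summed to 157 to 371 TPM in WT and 92.5 to 201 TPM in mutants, with the lowest value in mutant 4; all 11 had a lower mean in mutants, 6 at an unadjusted p under 0.05. Tubb3, a tubulin of neurons, was at 161 ± 58.3 (WT) and 92.6 ± 27.3 TPM (mutants) (SD, n = 4). The 7 genes of presomitic mesoderm summed to 99.2 to 165 TPM in WT and 66.6 to 133 TPM in mutants, lowest again in mutant 1.

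Most vascular and cardiac markers lay the other way. The 12 endothelial genes summed to 253 to 297 TPM in WT and 283 to 376 TPM in mutants. Of them 11 had a higher estimate in mutants, 9 at an unadjusted p under 0.05, against 5.55% of all genes tested. Cdh5, which joins endothelial cells, had means of 42.3 ± 3.67 and 55.7 ± 6.196 TPM (SD, n = 4). Cldn5, the most abundant of the 12, was at 46.8 ± 5.16 and 51.9 ± 7.18 TPM. Egfl7, the 1 with a lower estimate, was at 45.9 ± 6.16 and 36.8 ± 13.8 TPM. Its low values were those of mutants 3 and 4, the libraries low in mt-Nd6, at 25.1 and 26.7 TPM. In mutants 1 and 2 it was at 54.5 and 40.8 TPM. The 6 arterial genes summed to 122 to 131 TPM in WT and 132 to 164 TPM in mutants, and the 7 mural cell genes to 425 to 510 and 493 to 1059 TPM. Most of the mural sum came from Acta2, at 272 ± 25.6 and 465 ± 164 TPM, and Tagln, at 140 ± 16.3 and 167 ± 69.9 TPM (SD, n = 4). Of the arterial genes 5 had a higher estimate in mutants and 1, Gja4, a lower one. The 10 heart muscle genes summed to 1293 to 1882 TPM in WT and 1943 to 3958 TPM in mutants. The 13 genes of yolk sac endoderm, a tissue outside the embryo proper, summed to 30.6 to 275 TPM in WT and 162 to 1352 TPM in mutants, and the 8 of trophoblast and decidua to 18.9 to 39.1 and 28.01 to 340 TPM. Mutant 1 was the highest embryo for the endothelial, arterial, mural, heart and yolk sac sums. The 6 genes of primitive red cells summed to 14300 to 49272 TPM in WT and 20391 to 51903 TPM in mutants. The 6 macrophage genes summed to 5.37 to 7.59 and 3.26 to 8.35 TPM. Both sums overlapped between the genotypes. All 6 red cell genes had a higher estimate in mutants, 0 at an unadjusted p under 0.05, where 62.3% of all genes had a negative estimate. Of 2 macrophage genes tested 1 was higher and 1 lower. None of these genes passed after adjustment over all genes, and the part of cell types in the values of the members was not tested.

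A further limma fit held the mean log2(TPM + 1) of the neural progenitor genes as a term beside genotype. In it the log2 fold change of Hes5 was -0.06 ± 0.09 (SE), that of Nrarp -0.08 ± 0.08 and that of Notch1 -0.04 ± 0.11, against -0.60, -0.48 and -0.34 without the term. That of Hes6 was -0.42 ± 0.19 and that of Heyl -0.48 ± 0.25, against -0.49 and -0.41. With the endothelial genes as the term, Hes5 was at -0.04 ± 0.30 and Hes6 at -0.57 ± 0.23. With those of yolk sac endoderm, Hes5 was at -0.47 ± 0.39, Nrarp at -0.41 ± 0.30, Notch1 at -0.15 ± 0.24 and Hes6 at -0.67 ± 0.22. No member passed after adjustment in these fits (smallest adjusted p = 0.660, 0.507 and 0.311). The neural score itself was 0.40 lower in mutants, the endothelial score 0.26 higher and the yolk sac score 2.52 higher, so genotype and tissue markers cannot be told apart fully with 8 embryos.

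Relations between a member and the marker score of a tissue it is known from were examined for 5 pairs over the 8 embryos. Exact permutation tests were adjusted over the 5 pairs. They exchanged embryos across genotypes, and no test was made of r centred within genotype. The gene lists were chosen with earlier results of these data known, which the adjustment over 5 pairs does not cover. Hes5 followed the neural progenitor score with Pearson's r = 0.98 (exact permutation p = 2.48e-05, adjusted p = 0.000124, n = 8). The 8 embryos had the same order in both, so Spearman's rho was 1.00 (exact permutation p = 4.96e-05, the smallest possible, adjusted p = 0.000248). Without WT 2 and mutant 1, the embryos farthest from the median score, r was 0.94, and it was 0.97 after centring within each genotype. The score was a mean of log2(TPM + 1) over 11 genes that do not include Hes5, measured in the same libraries.

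Hes6 followed the neuronal score with r = 0.88 (exact permutation p = 0.00377, adjusted p = 0.00942) and rho = 0.86 (p = 0.0107, adjusted p = 0.0179). Without mutant 4 and WT 2 r was 0.71, and centred within genotype it was 0.76. Notch1 ran against the endothelial score, with r = -0.89 (exact permutation p = 0.00625, adjusted p = 0.0104) and rho = -0.86 (p = 0.0107, adjusted p = 0.0179). Without WT 3 and mutant 1 r was -0.78 and centred within genotype it was -0.83. Without mutant 1 alone it was -0.66 and no longer passed (exact permutation adjusted p = 0.167).

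Hey2 and the heart muscle score had r = 0.76 (exact permutation p = 0.0506, adjusted p = 0.0633) and rho = 0.55 (p = 0.171, adjusted p = 0.214). This relation rested on mutant 1 and WT 3, the embryos with the highest and lowest score, and was -0.55 without them. Nrarp and the presomitic mesoderm score had r = 0.69 (exact permutation p = 0.0903, adjusted p = 0.0903) and rho = 0.33 (p = 0.428, adjusted p = 0.428), and r was -0.23 without WT 1 and mutant 1. Centred within genotype, r was 0.78 for Hey2 and 0.56 for Nrarp.

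**Figure D4:**
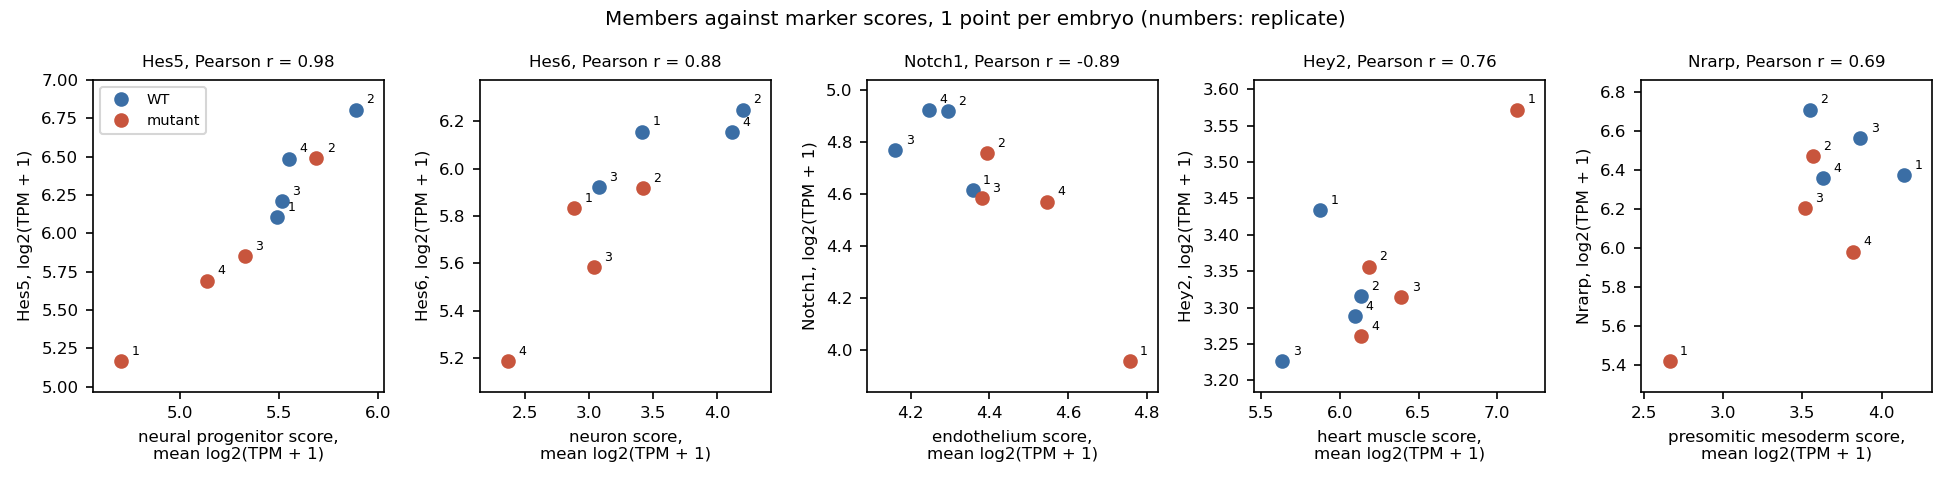
Level of 5 members (vertical axis, log2(TPM + 1)) against the marker score of a tissue (horizontal axis, mean log2(TPM + 1) over its genes), 1 point per embryo with its replicate number, WT in blue and mutant in red. Hes5 keeps the same order as the neural progenitor score, Notch1 runs against the endothelial score, and the points of mutant 1 lie at an end of the plots of Hes5, Notch1, Hey2 and Nrarp.

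The other genes of the pathway were examined by role in a list of 65 genes, of which 59 were tested. In limma 0 of 59 passed after adjustment. At an unadjusted p under 0.05 there were 6 with lower and 3 with higher levels in mutants, against 8.0% and 5.55% of all genes tested. The median log2 fold change was -0.07, against -0.04 over all genes. Without mutants 3 and 4 it was -0.0031, and the median over all genes moved as well, to 0.027.

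Of the 6 ligands, 5 had a lower mean in mutants and 0 reached an unadjusted p under 0.05. Dll1, the ligand of neural tube and presomitic mesoderm, was at 46.0, 48.4, 45.6 and 35.5 TPM in WT and at 14.2, 45.6, 26.6 and 35.4 TPM in mutants. Dll3, which acts inside the cell during somite formation, was at 30.3, 27.4, 24.3 and 23.0 TPM in WT and at 7.23, 20.5, 23.2 and 22.1 TPM in mutants. Both were by far lowest in mutant 1, and without it the log2 fold change was -0.31 in place of -0.62 for Dll1 and -0.24 in place of -0.61 for Dll3. Without mutants 3 and 4 that of Dll3 was -1.03. Dll4, the ligand of arterial endothelium, was at 6.39 ± 0.669 (WT) and 5.73 ± 0.587 TPM (mutants) (SD, n = 4). Jag1, at 27.7 ± 3.33 and 31.3 ± 4.85 TPM, had the only higher mean, Jag2 was at 12.7 ± 1.31 and 10.4 ± 3.65 TPM, and the non-canonical Dlk1 at 189 ± 28.04 and 186 ± 51.8 TPM. Notch4, the receptor of endothelium, was at 6.19 ± 0.588 and 5.58 ± 0.556 TPM, with overlapping groups. Without mutants 3 and 4 the log2 fold change was 0.28 for Jag1, 0.023 for Jag2, 0.14 for Dlk1 and -0.20 for Notch4, against 0.17, -0.32, -0.06 and -0.13 with all embryos.

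Among the 5 enzymes that add sugars to the receptor, Mfng and Lfng reached an unadjusted p under 0.05. These Fringe enzymes tune which ligands the receptor answers to. Mfng was at 22.2, 26.3, 20.3 and 23.2 TPM in WT and at 18.4, 19.8, 15.3 and 14.9 TPM in mutants, so its groups did not overlap. Its log2 fold change was -0.41 ± 0.11 (SE; adjusted p by limma = 0.281; exact permutation p = 0.0286), and -0.25 without mutants 3 and 4. Lfng, a gene of the segmentation clock, was at 65.7 ± 11.3 and 49.3 ± 10.9 TPM (SD, n = 4), a log2 fold change of -0.41 ± 0.16 (SE; adjusted p by limma = 0.328).

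Of the genes for ligand ubiquitination 3 were tested, 0 of them at an unadjusted p under 0.05. The proteases that cut the receptor showed mostly small positive estimates: 7 of 9 had a higher mean in mutants. Furin, which cuts the receptor on its way to the surface, was at 16.8 ± 0.553 (WT) and 20.6 ± 2.46 TPM (mutants) (SD, n = 4; limma adjusted p = 0.299). All 4 mutants lay above all 4 WT embryos, as was found for 3.63% of all genes. In the nuclear complex 0 of 7 reached an unadjusted p under 0.05, and Rbpj, the DNA-binding subunit itself, was at 35.1 ± 2.27 and 34.0 ± 1.89 TPM. Its 95% confidence interval ran from -0.19 to 0.11 on the log2 scale, around an estimate of -0.04 that was -0.020 without mutants 3 and 4. Of the 10 corepressors Tle1, a Groucho protein that Hes repressors recruit, had an unadjusted p under 0.05, at 23.5 ± 1.598 and 20.2 ± 1.496 TPM. Its log2 fold change was -0.21, and -0.13 without mutants 3 and 4.

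Of 9 inhibitors and turnover genes, Dtx3 reached an unadjusted p under 0.05, at 73.7 ± 6.98 (WT) and 51.3 ± 18.8 TPM (mutants) (SD, n = 4). Its low values were those of mutants 3 and 4, at 32.8 and 37.3 TPM, the libraries low in mt-Nd6, against 68.4 and 66.6 TPM in mutants 1 and 2. The estimate on the log2 scale was -0.59 with all embryos and -0.12 without mutants 3 and 4. Among 3 tested genes of other Hes and related repressors, Bhlhe40, a repressor of the circadian and hypoxia responses, was at 1.93 ± 0.287 and 2.76 ± 0.650 TPM (limma adjusted p = 0.352), with a log2 fold change of 0.35, and of 0.53 without mutants 3 and 4. Proneural genes start neuronal differentiation and are repressed by Hes proteins. All 6 tested had lower means in mutants, with a median log2 fold change of -0.58, against 62.3% with a negative estimate among all genes. Neurog2, a proneural factor of spinal cord and cortex, was at 16.6, 26.1, 20.3 and 30.8 TPM in WT and at 7.42, 20.3, 17.0 and 11.6 TPM in mutants (limma adjusted p = 0.329). Neurod4, which acts later in the same lineage, was at 11.8 ± 5.27 and 5.80 ± 2.08 TPM (limma adjusted p = 0.317).

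**Figure D5:**
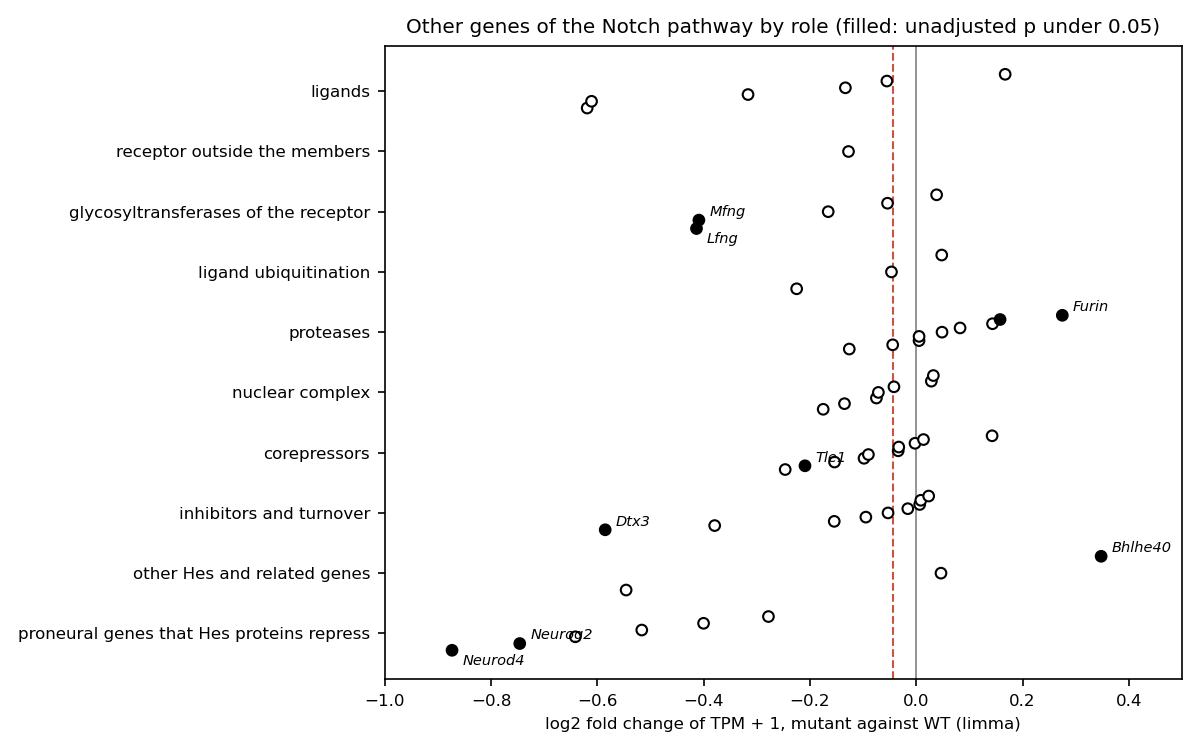
Log2 fold change of TPM + 1 in mutants against WT (horizontal axis) for the 59 tested pathway genes outside the 10 members, grouped by role; filled points have an unadjusted limma p under 0.05, those described in the text are named, and the dashed line is the median of all genes tested (-0.04). All 6 proneural genes lie left of 0 and 7 of 9 proteases lie right of it.

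The genes most like each member were looked up over the 8 embryos by Pearson's r of log2(TPM + 1), as a description, among 10282 named genes with a mean of at least 5 TPM. No test was made of these values. Notch1 was most like Nell2 (r = 0.99) and Olig2 (0.99), the latter a factor of motor neuron progenitors. Hes5 was most like Syt11 (0.99) and Fmn2 (0.99), Nrarp like Fam181a (0.99) and Fam131b (0.98), and Notch3 like Wasf3 (0.98) and Sox2 (0.98), a factor of neural progenitors. Hes6 was most like Gadd45g (0.99), a growth arrest gene, and Mettl26 (0.99). Notch2 was most like Hdgf (0.98) and Thada (0.97), Hey1 like Slc25a25 (0.97) and Brd3os (0.96), and Hey2 like Creb3 (0.98). The highest values were smaller for Hes1, with Maoa (0.94) and Fpgs (0.93), and for Heyl, with Maf1 (0.94) and Lpar1 (0.94).

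On the annotation, Notch1, Notch3, Hes5 and Nrarp overlap genes on the opposite strand, each of which had a mean below 1 TPM. Whether the counting used the strand is not given in the sources used here.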

How the data were processed

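The authors deposited 1 table that gives each symbol a TPM value in every one of the 8 embryos. The build is GRCm38 (mm10), per the submitters' processing notes. For the aligner, counter, annotation and strand setting, the name is not given in the sources used here. All columns matched a sample by name, and 0 were left over. The members and gene lists were chosen with earlier results of these data known.

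The genotypes were compared with limma (3.58.1, R 4.3.3) on the scale log2(TPM + 1), with a trend, on 13596 genes with at least 1 TPM in at least 4 embryos, two-sided, with Benjamini-Hochberg adjustment over all of them (threshold 0.05). Fold changes on TPM + 1 are nearer 0 than ratios of TPM for low genes. Exact permutation tests used all 70 assignments of 4 against 4 (smallest p 0.0286). P-values measure the spread between these embryos. Named are all members, the ligands, Notch4, Rbpj, pathway genes at an unadjusted p under 0.05, up to 2 most abundant genes of a marker list (not all printed) and the 2 genes most like each member. Further genes and library measures (mt-Nd6) were chosen after their values were seen. Some genes under this rule are not reported here. Reads were recovered with merged exon lengths of GENCODE M21: 93.6% of the 23993 symbols with a value came out whole within 0.02 reads in all embryos. Positions are from GENCODE M21, promoters from RefSeq. On simulated data for this comparison (13596 genes), limma called 69 of 100 genes changed 1.5-fold, 95 of 100 changed 2-fold and 6 unchanged genes. The simulated spread was drawn for each gene independently, so variation that genes of an embryo share was left out. Changed genes had a mean log2(TPM + 1) above 2. These shares therefore do not give how often such a change in a member would be called here.

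Alternatives were other pseudocounts (0.1, 0.5), filters (none, or a mean of at least 5 TPM), 3 scalings, array weights, no trend, covariates (3 marker scores, Xist), the replicate number as a block, permutation per gene and leaving out each embryo. A fit without mutants 3 and 4, and limma voom with library totals on the recovered reads, were chosen after seeing the data.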

Additional observations from a re-analysis of the deposited data

Results flagged for a closer look

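Of 54 groups of 4 values examined (the 10 members and 17 further pathway genes in WT and in mutants), 2 held an embryo far from the other 3 of its group, by a test that chance alone meets in about 1 of 20 groups. Both were mutant 2. Its Jag1 level was 38.5 TPM where mutants 1, 3 and 4 held 27.95 to 29.6 TPM, and its Lfng level was 65.5 TPM where they held 43.2 to 44.97 TPM. No member was among them.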

How the results depend on the processing

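No member and no other pathway gene passed the adjusted threshold under any of the 25 alternatives, and 243 of 250 member estimates kept their sign. The other filters, no trend, the replicate block and permutation leave a member's estimate as it is, so its sign could not turn there. The number of genes called was 0 to 1 on leaving out single embryos (1 without mutant 2) and 3 without mutants 3 and 4, against 0. Genes at an unadjusted p under 0.05 numbered 1842, 3511 with array weights, 1022 with the neural progenitor covariate, 1014 by permutation and 1158 to 3094 on leaving out single embryos (1158 without WT 1, 1213 without WT 2, 3094 without mutant 2). Members at that level numbered 4, 1 to 5 on leaving out single embryos (1 without WT 2 or mutant 4, 2 without WT 4), 6 with array weights, 2 with no trend or upper-quartile scaling, 1 with the endothelial or yolk sac covariate, median-ratio scaling, permutation or without mutants 3 and 4, and 0 with the neural progenitor covariate. Other pathway genes at that level numbered 9, 15 with array weights, 3 with the endothelial or neural progenitor covariate, 4 by permutation and 3 to 13 on leaving out single embryos (3 without WT 2, 4 without WT 4 or mutant 4).

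With the endothelial covariate the log2 fold change turned to 0.076 for Notch1, 0.037 for Notch3, -0.11 for Hey2, 0.052 for Nrarp, 0.012 for Dll1, 0.10 for Dll3, 0.023 for Rbpj and 0.0034 for Neurog2. With the neural progenitor covariate it turned to 0.048 for Notch3, -0.013 for Hey2 and 0.038 for Rbpj, and with the yolk sac covariate to -0.017 for Jag1 and 0.058 for Notch4. Hey2 was at -0.0057 without mutant 1, Jag2 at 0.023 and Dlk1 at 0.14 without mutants 3 and 4, Dlk1 from -0.23 (without mutant 1) to 0.067 (without mutant 4) on leaving out single embryos, and Rbpj at 0.0071 with median-ratio scaling; the cause was not tested.

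On leaving out single embryos, r ran from 0.97 to 0.99 for Hes5, from 0.80 to 0.90 for Hes6, from -0.94 to -0.66 for Notch1, from 0.16 to 0.94 for Hey2 and from -0.15 to 0.80 for Nrarp. Nrarp was at -0.15, and Notch1 at -0.66, without mutant 1. Hey2 passed with median-ratio scaling (0.77), upper-quartile scaling (0.81) and without WT 1 (0.94).

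Whether the replicate number marks a pairing is not given. Over all 13596 genes tested, same-numbered embryos of the groups correlated at -0.062, 0.040, -0.19 and -0.25 in their deviations. As a block it gave 1900 genes, 4 members and 11 other pathway genes at an unadjusted p under 0.05, and 0 called.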
